A study of Gallus gallus with 24 samples.

Results

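The genes described here encode the pore-forming and accessory subunits of potassium, sodium, calcium and HCN channels, measured by RNA sequencing in the hypothalamus of broiler chickens. They were chosen by symbol: every gene whose symbol starts with KCN, SCN followed by a digit, CACNA, CACNB, CACNG or HCN followed by a digit, except KCNJ13, that lies outside chromosomes Z and W and has at least 240 counts summed over all libraries. The choice gave 93 of the 16779 genes in the table, and all 93 were among the 13742 genes that passed the filter on low counts. Of 104 matching symbols, 11 were left out: 7 for low counts, 3 for lying on chromosome Z, which included KCNN2, and KCNJ13. The members just inside the minimum were KCNQ1 with 274 counts and SCN11A with 303, and the genes just outside it were KCNE2 with 146 and KCNE5 with 144. A further 11 channel genes carried a description but no symbol and were not members. One of them, on chromosome 28, is described as HCN2 like the member of that name, so HCN2 may be divided between records.

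Voltage-gated sodium channels drive the upstroke of the action potential, voltage-gated calcium channels couple depolarisation to transmitter and hormone release, and potassium channels repolarise the membrane and set its resting potential. Each kind is built from a pore-forming subunit and accessory subunits that change its traffic and gating. In the hypothalamus, channels of these kinds set the firing of the neurons that sense temperature, feeding state and osmolality, and glia carry potassium channels that buffer the extracellular space.

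The birds were of the strain labelled Ros 308, sampled at 42 days after hatching. All were reared with the room cooled stepwise to 24 °C. At 28 days they were allocated to 24 °C or 35 °C, both at 60% relative humidity. They ate a basal diet or the same with 1% L-citrulline, an amino acid that the body converts to arginine. Diet and temperature were crossed, which made 4 groups of 6 libraries, called by both below (for example, L-citrulline 24 °C). A treatment held 6 replicates of 12 chickens, housed by 3 in a cage. A library is called a bird below, although the labels do not say whether RNA of several birds was pooled, and p-values measure the spread between these libraries. The labels give neither sex nor a sequencing batch.

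Libraries held 12635239 to 15001037 gene counts, and the channel genes took 0.364% to 0.558% of them. Of the fixed marker lists, 20 of 21 hypothalamic region genes and 13 of 14 neuron genes passed the filter. Markers of surrounding brain regions were present as well, at a summed 106.6 to 445.1 CPM (counts scaled to library size) over 11 kept of 14. Anterior pituitary markers summed to 6.12 to 11.2 CPM over 5 kept of 8. Bird 3 of the L-citrulline 35 °C group stood apart in oligodendrocyte markers, with a summed 16450 CPM over 13 kept of 18, where the other birds had 23480 to 68620. MOG, MAG, MOBP, OPALIN and CLDN11 of that list were not analysed here. It also had the highest share of counts from channel genes, and results on marker levels are given with and without it. In bulk tissue, fewer cells of a type and less RNA per cell cannot be told apart.

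Channel gene levels spanned from 144 FPKM (fragments per kilobase of gene, scaled to library size) to 0.176 FPKM. The mean over the 24 birds was 50 FPKM or more in 7 members, 10 FPKM or more in 41, and under 1 FPKM in 11. The median member stood at 8.58 FPKM, against 7.98 FPKM over the 16229 genes with any count. The levels describe the members and were not tested, since the count minimum of the choice uses them.

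In FPKM, sodium channels were led by accessory subunits. SCN2B, a beta subunit that binds the pore-forming subunit covalently, had the highest level of all members at 144 ± 16.1 FPKM (SD, n = 24), with 118.7 FPKM in the lowest bird and 189.6 in the highest. SCN3B followed at 47.4 ± 8.90 FPKM, and SCN4B, the beta subunit tied to resurgent sodium current in mammals, reached 5.53 ± 2.27 FPKM. Among pore-forming subunits, SCN2A, the subunit of the axon initial segment in mammalian neurons, stood at 39.5 ± 5.14 FPKM. SCN1A, which in mammals serves fast-spiking interneurons, stood at 28.0 ± 5.25 FPKM, and SCN8A, the subunit of the nodes of Ranvier, at 23.1 ± 3.31 FPKM. The range of SCN1A over birds overlapped those of SCN2A and SCN8A. The subunits known from sensory neurons and skeletal muscle lay far below: SCN9A at 2.88, SCN4A at 0.431 and SCN11A at 0.176 FPKM. This order covers members only, and it depends on the gene lengths by which FPKM divides. SCN2B has a length of 761 bases and SCN2A one of 8154. In summed counts SCN2A was higher, at 104787 against 35697 for SCN2B. Records without a symbol, described as sodium channel beta subunit 1 and alpha subunit 3, stood at 34.4 and 20.1 FPKM.

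Calcium channel pore subunits among the members, which do not include CACNA1A, were at moderate levels. CACNA1E, the pore of R-type current, led at 22.2 ± 5.04 FPKM, ahead of the T-type subunit CACNA1G at 13.9 ± 2.31 and the N-type subunit CACNA1B at 12.2 ± 2.02. The L-type subunits CACNA1C and CACNA1D stood at 5.84 ± 1.197 and 5.27 ± 0.961 FPKM, and the T-type subunit CACNA1H was lowest of the 6 at 4.03 ± 0.869. Neighbours in that order overlapped in their ranges over birds, except that the lowest CACNA1B bird (9.29 FPKM) lay above the highest CACNA1C bird (9.20 FPKM). The highest accessory subunits lay above the pores. CACNB1, CACNA2D3, CACNG7 and CACNB2, at 8.19, 9.62, 9.63 and 10.35 FPKM, lay below 3 of the pores. CACNB4, CACNG4 and CACNG5, at 18.8, 18.2 and 17.0 FPKM, lay below CACNA1E only. CACNA2D2, of the family that binds gabapentin, stood at 54.4 ± 8.58 FPKM and CACNB3, a cytoplasmic beta subunit, at 36.5 ± 4.43. CACNG2 (stargazin), which in mammals escorts AMPA glutamate receptors to synapses, stood at 45.9 ± 3.73 FPKM, and its relative CACNG3 at 24.1 ± 13.3.

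Potassium channel levels were led by cytoplasmic and fast-acting subunits. Only members are ordered here, and KCNA1 and KCNMA1 were not among them. KCNAB2 and KCNAB1, the beta subunits of the KCNA channels, stood at 67.8 ± 11.0 and 66.6 ± 14.7 FPKM. The record with the symbol KCNAB1 is described as regulatory beta subunit 3, so its symbol and description differ. The same holds for the leak channel KCNK1, described as subfamily K member 7. These records are named by their symbols throughout, and which gene each stands for was not tested. KCNC2, of the family that lets neurons fire fast, stood at 64.6 ± 6.05 FPKM, and KCNA2, an axonal delayed rectifier, at 61.3 ± 8.06. KCNH2, the ERG channel, reached 50.1 ± 5.74 FPKM, while the next of its family, KCNH5, stood at 3.70 ± 0.720. Of the inward rectifiers, KCNJ3, a G protein-gated subunit, led at 36.4 ± 9.23 FPKM, and its partner KCNJ6 stood at 7.83 ± 1.64. KCNJ11 and KCNJ8, the pores of ATP-sensitive channels, stood at 12.99 ± 2.43 and 7.39 ± 1.01 FPKM. The 11 two-pore leak channels ran from KCNK1 at 30.6 ± 2.93 to KCNK9 at 0.854 ± 0.301 FPKM, with KCNK3 at 8.85 ± 1.42 and the mechanosensitive channel KCNK2 at 7.19 ± 1.38.

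The silent subunits, with 9 members, do not conduct alone but modify KCNB channels. KCNS2 stood at 27.5 ± 7.71 FPKM, KCNG2 at 15.0 ± 1.55 and KCNS1 at 14.1 ± 3.01, and KCNG4 was lowest at 0.810 ± 0.517. KCND2, a pore of A-type current, stood at 20.7 ± 3.07 FPKM, and its accessory KCNIP4 at 19.1 ± 2.90. The M-current subunit KCNQ3 stood at 7.76 ± 1.58 FPKM. KCNN3, a small-conductance calcium-activated channel, stood at 18.1 ± 1.88 FPKM, the sodium-activated KCNT1 at 12.7 ± 3.44, and the pacemaker channel HCN2 at 20.8 ± 2.25. The record without a symbol that is also described as HCN2 stood higher, at 68.8 FPKM, with 83207 summed counts against 19091 for the member. Values of HCN2 here are of the member only. KCNQ1, known from heart and epithelia, was low at 0.326 ± 0.205 FPKM.

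**Figure D1:**
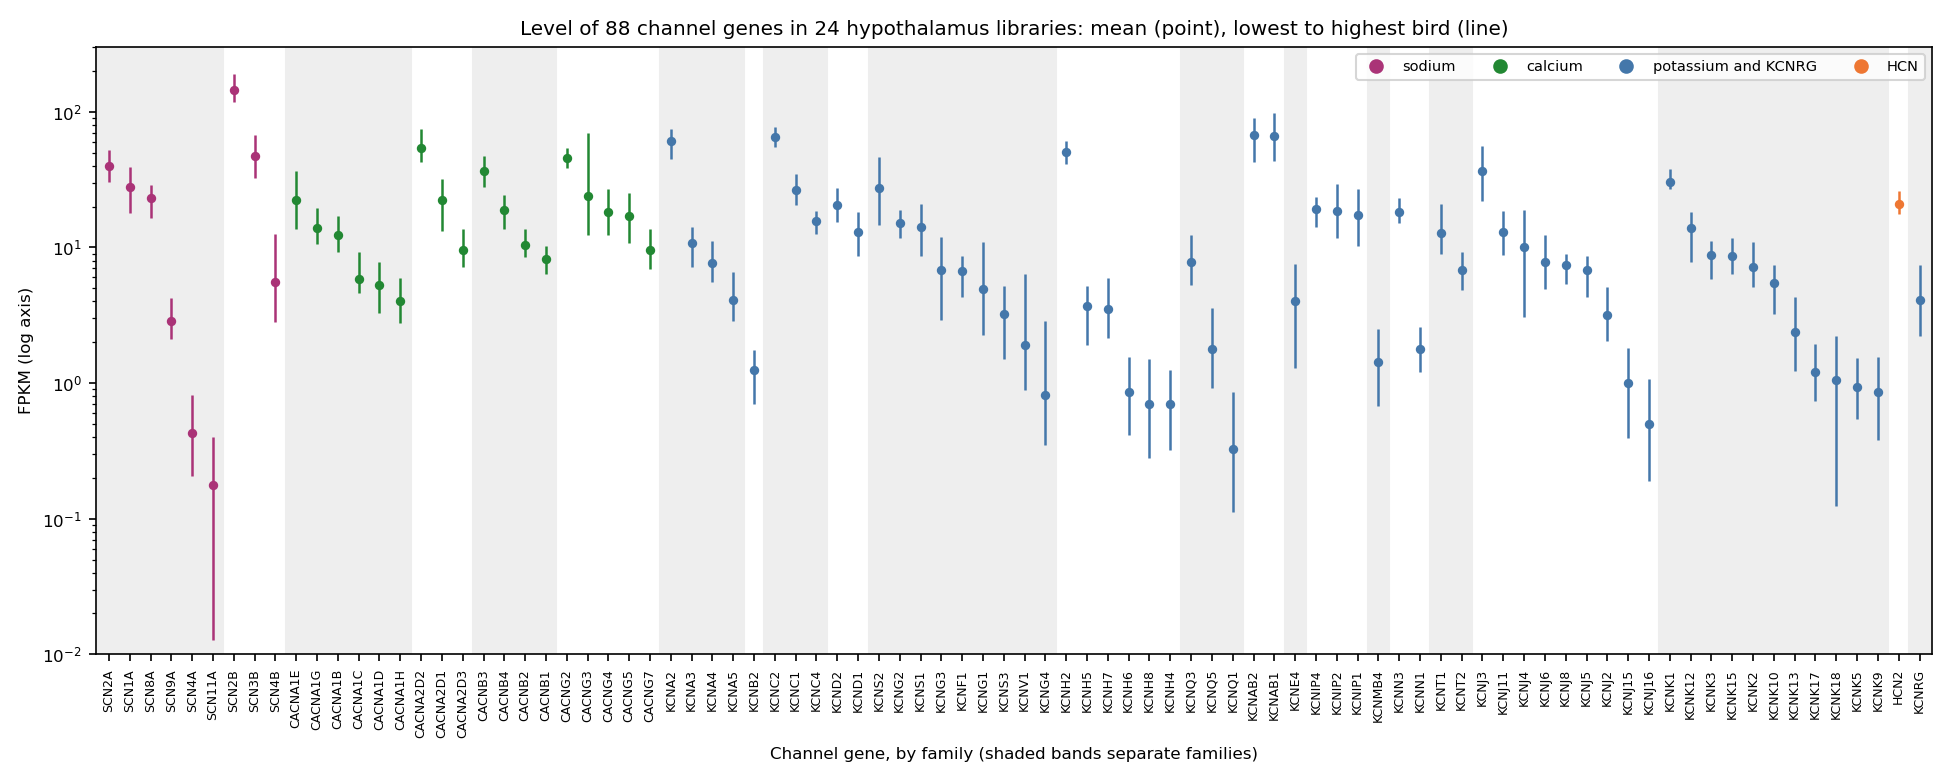
FPKM of 88 channel genes on a log axis, by family, where points are means over 24 birds and lines run from the lowest to the highest bird. SCN2B lies highest at 144 FPKM and SCN11A lowest at 0.176 FPKM.

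The members lay on 24 chromosomes of build GRCg6a, and 8 pairs lay within 100000 bases of each other. SCN4B (chromosome 24, 5447291 to 5451642) and SCN2B (5455340 to 5458260) were 3698 bases apart, and differed in level by the 144 and 5.53 FPKM given above. SCN9A (chromosome 7, 19505895 to 19543801) lay 52013 bases from SCN1A (19595814 to 19652432), with SCN2A (19817502 to 19873003) further along. KCNA2 and KCNA3 on chromosome 26 were 20461 bases apart, with 61.3 and 10.7 FPKM. KCNJ16 and KCNJ2 on chromosome 18 were 13606 bases apart, with 0.502 and 3.16 FPKM. A gene overlapped 15 of the members on either strand, among them NOS3 for KCNH2 and EPCAM for KCNK12. Whether counting used the strand is not given in the sources used here, so reads of such pairs may not be separable.

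None of the 93 channel genes differed between treatments at an adjusted p under 0.05 (edgeR quasi-likelihood test, Benjamini-Hochberg over 13742 genes) in any of 8 comparisons. The background was the same: 0% of all genes tested were called in each. The typical precision of a member was a 95% confidence interval of ±0.32 log2 units for a comparison of 2 groups. The comparisons share the same 4 groups, so their values are not independent of each other. Counts at an unadjusted p under 0.05 are given with those over all genes, as a description.

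Heat on the basal diet (35 °C against 24 °C) gave 1 member at an unadjusted p under 0.05, which is 1.08% of 93, where all genes gave 3.69%. That member was CACNB1, a calcium channel beta subunit, at 29.6, 34.0 and 38.3 CPM in the lowest, median and highest bird at 24 °C and 32.9, 40.6 and 43.4 CPM at 35 °C. The groups overlapped, and the log2 fold change was 0.22 ± 0.08 (SE) with an adjusted p of 1.00 in edgeR. The next members by p were CACNG7 (log2 fold change -0.31 ± 0.16), KCNN3 (-0.14 ± 0.08), SCN3B (0.21 ± 0.13) and the EAG-type channel KCNH5 (-0.24 ± 0.16). In all, 52 of 93 members had a positive log2 fold change, with a median of 0.05 over members and 0.0004 over all genes.

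Heat on the L-citrulline diet gave 10 members at an unadjusted p under 0.05 (10.8%), where all genes gave 6.71%. KCNG4, a silent subunit (chromosome 11, 16658649 to 16675822), had 1.78, 2.81 and 7.52 CPM in the lowest, median and highest bird on L-citrulline at 24 °C. At 35 °C on the same diet it had 1.18, 1.54 and 2.29 CPM. The ranges overlapped in part, 1 bird at 24 °C stood far above the rest, and the log2 fold change was -1.13 ± 0.31 with an adjusted p of 0.532 in edgeR. Without that bird it was -0.77.

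SCN11A, the sodium channel subunit of mammalian nociceptors, had 0.643, 1.44 and 2.19 CPM on L-citrulline at 24 °C and 0.216, 0.363 and 0.690 CPM at 35 °C. Birds at 24 °C lay higher, with 1 of the 24 °C birds inside the 35 °C range. The log2 fold change was -1.80 ± 0.53 with an adjusted p of 0.537 in edgeR, at the lowest level of all members. KCNF1, another silent subunit, differed by -0.42 ± 0.13 and CACNA2D3, a calcium channel alpha2-delta subunit, by -0.34 ± 0.12. KCNAB1 (chromosome 9, 23040155 to 23068606) had 124.8, 149.4 and 196.0 CPM at 24 °C and 162.3, 210.9 and 291.1 CPM at 35 °C on this diet. Its groups overlapped, and the log2 fold change was 0.47 ± 0.15 with an adjusted p of 0.545 in edgeR.

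L-citrulline at 24 °C gave 14 members at an unadjusted p under 0.05 (15.1%), where all genes gave 6.97%. Compared with basal birds at 1.13, 1.60 and 2.57 CPM, KCNG4 had a log2 fold change of 1.07 ± 0.31, and of 0.70 without bird 5 of the L-citrulline group. Basal birds had KCNAB1 at 167.5, 209.8 and 277.0 CPM, and the log2 fold change under L-citrulline was -0.44 ± 0.15. CACNA2D3 differed by 0.31 ± 0.12. The adjusted p of these 3 members ran from 0.535 to 0.644 in edgeR.

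KCNJ4, a strong inward rectifier, had 20.02, 31.0 and 44.9 CPM in basal birds at 24 °C and 8.20, 16.0 and 32.1 CPM under L-citrulline. Of the L-citrulline birds, birds 3 and 4 were lowest, at 8.99 and 8.20 CPM, and the log2 fold change was -0.85 ± 0.34 with an adjusted p of 0.668 in edgeR. The same birds had the lowest summed markers of surrounding brain regions of all 24 birds, 106.6 and 116.4 CPM over 11 kept of 14 genes, in which group medians were 316.2 CPM on the basal diet and 190.6 CPM on L-citrulline. They also had the highest hypothalamic region marker levels, 1.54 and 2.26 SD. The part of these markers in the KCNJ4 difference was not tested on its own. With 3 marker levels (oligodendrocyte, hypothalamic region, neuron), each centred within its group, added to the fit, 3 members were called in this comparison: KCNJ4, SCN1A and KCNAB2, all lower under L-citrulline. Centred levels have the same mean in every group, so they do not adjust for marker differences between groups, and the KCNJ4 difference was -1.02 in that fit. With levels not centred, an alternative chosen after seeing the data, 0 members were called. The KCNJ4 difference in that fit is not given here. Without marker levels and with 1 bird left out, the KCNJ4 difference ran from -1.08 to -0.70. For heat on the L-citrulline diet and for the interaction, the centred levels gave SCN1A and KCNAB2 as called, both higher, and the levels not centred gave 0. The share of all genes called in these fits is not given here, so the counts stand without a background.

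L-citrulline at 35 °C gave 3 members at an unadjusted p under 0.05 (3.23%), where all genes gave 6.43%. KCNN3 had 30.7, 33.5 and 37.5 CPM on the basal diet and 34.2, 38.4 and 47.5 CPM on L-citrulline. The groups overlapped between 34.2 and 37.5 CPM, and the log2 fold change was 0.23 ± 0.08 with an adjusted p of 0.747 in edgeR. CACNB3 differed by -0.18 ± 0.09. SCN11A differed by -1.11 ± 0.55 and KCNH5 by 0.31 ± 0.16. The median log2 fold change over members was -0.05, and 54 of 93 members were negative.

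Heat and L-citrulline together, against the basal diet at 24 °C, gave 1 member at an unadjusted p under 0.05, where all genes gave 3.88%. It was KCNE4, an accessory subunit that inhibits KCNA and KCNQ channels, at 0.61 ± 0.28. Heat averaged over the diets gave 2 members (all genes 3.03%), KCNG4 and SCN11A. L-citrulline averaged over the temperatures gave 3 members (all genes 5.48%), which were KCNE4, KCNG4 and KCNN3.

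The interaction, the difference between the effect of L-citrulline at 35 °C and that at 24 °C, gave 17 members at an unadjusted p under 0.05 (18.3%), where all genes gave 7.56%. KCNAB1 had an interaction of 0.63 ± 0.21 log2 units, CACNA2D3 -0.44 ± 0.17, SCN11A -1.92 ± 0.74, KCNG4 -1.15 ± 0.45 and KCNF1 -0.47 ± 0.19. Their adjusted p ran from 0.530 to 0.617 in edgeR, so no interaction passed the test. KCNF1 had its highest median on L-citrulline at 24 °C (19.8 CPM) and its lowest on L-citrulline at 35 °C (13.8 CPM), with 18.0 and 16.9 CPM in the basal groups. CACNA2D3 also had its highest and lowest medians in these L-citrulline groups, 47.9 CPM at 24 °C and 36.1 CPM at 35 °C. On the basal diet its median was higher at 35 °C (42.2 CPM) than at 24 °C (37.8 CPM), unlike that of KCNF1. CACNA2D3 was highest of all birds in birds 3 and 4 of L-citrulline 24 °C, at 56.8 and 54.0 CPM. KCNAB1 was lowest of all birds in bird 3 of that group, at 124.8 CPM. The part of the region markers of these birds, given above, in these values was not tested. The median absolute interaction was 0.26 log2 units over members and 0.12 over all genes. Its median standard error was larger over members as well, at 0.22 against 0.16 over all genes.

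**Figure D2:**
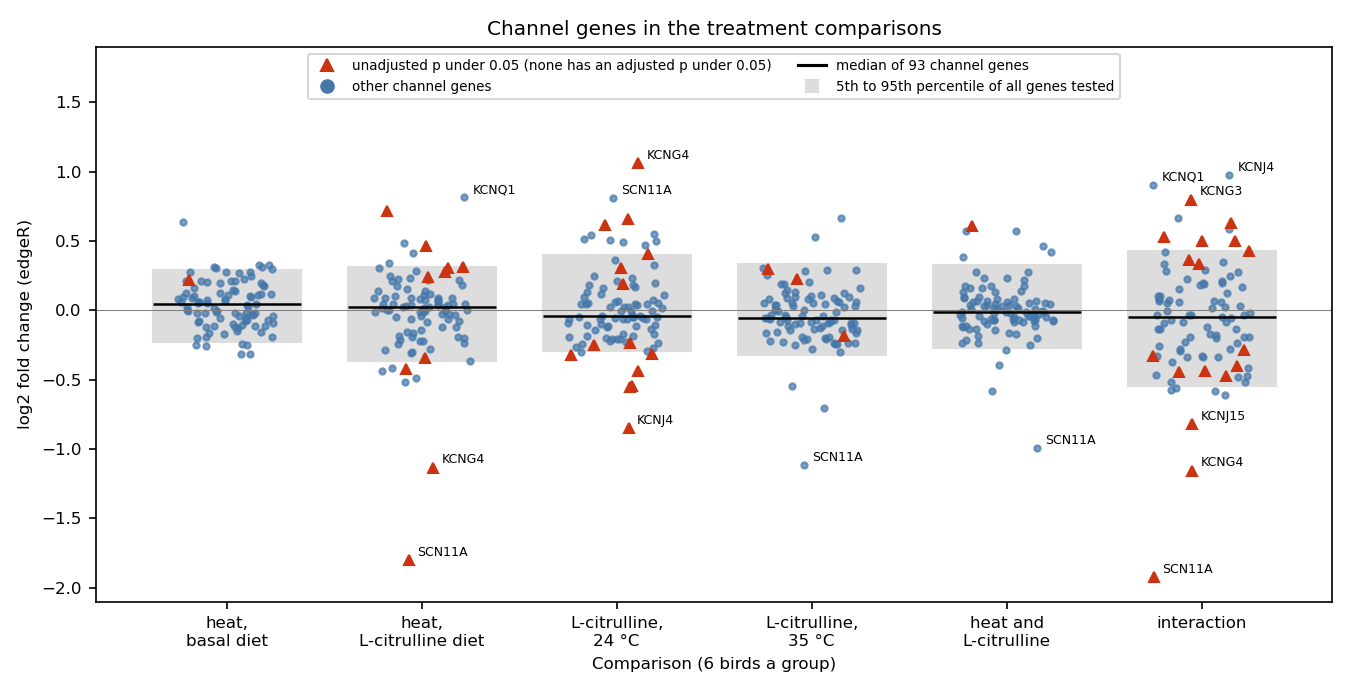
Log2 fold change of each of the 93 channel genes (points) in 6 comparisons of groups of 6 birds, with the median of the members (line) and the 5th to 95th percentile of all genes tested (grey). Triangles mark an unadjusted p under 0.05, which 1, 10, 14, 3, 1 and 17 members have from left to right.

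**Figure D3:**
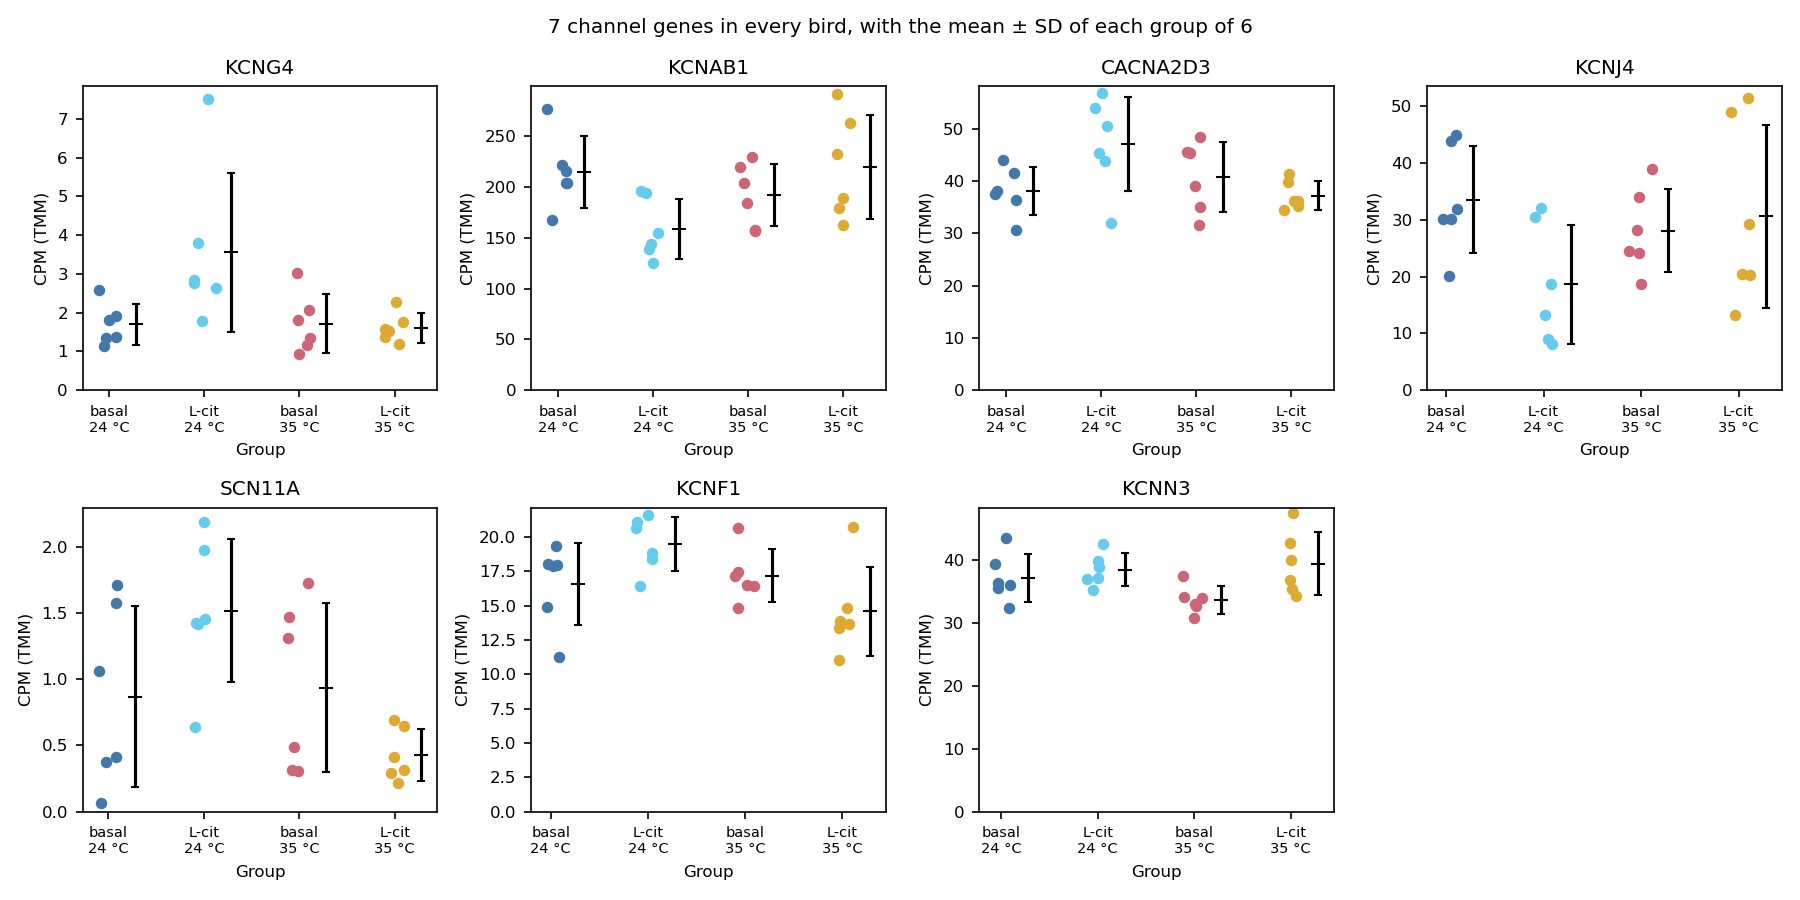
CPM (scaled by TMM) of 7 channel genes in each of 24 birds, with the mean ± SD of each group of 6 beside the points. KCNG4 in L-citrulline birds at 24 °C reaches 7.52 CPM in 1 bird and at most 3.79 CPM in the others. KCNAB1 runs from 124.8 to 196.0 CPM in that group, inside which birds of each other group also lie.

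Genes outside the choice that act with channels, such as ankyrins, intracellular FGF genes, DPP6 and calmodulins, were looked at as a list of 48, of which 41 were tested. None was called in a treatment comparison, and at an unadjusted p under 0.05 the list gave 0 or 1 gene in each of the 8. The authors' deposited table for L-citrulline at 35 °C against L-citrulline at 24 °C gives SCN11A a log2 fold change of -1.83 with a p of 0.000311 and an adjusted p of 0.454. The authors' deposited table for L-citrulline against basal diet at 24 °C gives KCNAB1 a log2 fold change of -0.44 with a p of 0.00222 and an adjusted p of 0.787. In the authors' deposited tables of 5 comparisons, 0 of the 93 members had an adjusted p under 0.05. The background was nearly the same. Of all genes, 1 of 16048 was under 0.05 for L-citrulline 35 °C against basal 35 °C, and 0 in each other comparison.

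Beside these comparisons, the summed oligodendrocyte markers had group medians of 39200 CPM on the basal diet at 24 °C, 40900 on L-citrulline at 24 °C, 36480 on the basal diet at 35 °C and 48240 on L-citrulline at 35 °C. The ranges of the groups overlapped, from 16450 to 68620 CPM in the last group. The part of these markers in the treatment differences was not tested apart from the fits with marker levels given here.

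The channel genes had a higher median spread between birds of a group than all genes tested, which is given as a description. The median biological coefficient of variation (BCV, the square root of the edgeR dispersion) was 0.184 over the 93 members and 0.133 over all genes tested, at a median log2 CPM of 4.63 and 4.69. Of the members, 77 lay above the median of all genes and 14 above the 90th percentile. With the 3 marker levels in the fit, the medians were 0.144 and 0.112, and the value fell in 85 of 93 members. The share of all genes in which it fell was not counted, so the 85 cannot be set against a background.

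Among the most variable members were SCN11A (BCV 0.548) and KCNQ1 (0.479), both near the count minimum. Members at higher counts were variable too. KCNV1, a silent subunit (BCV 0.498), had a median of 3.21 CPM but 13.7 CPM in bird 5 of the L-citrulline 24 °C group and 11.9 CPM in bird 3 of the L-citrulline 35 °C group. CACNG3 (0.420) had a median of 36.5 CPM, and its highest values, 126.0 and 94.1 CPM, came from bird 3 of the L-citrulline 35 °C group and bird 1 of the basal 35 °C group. KCNG1, a silent subunit (0.440), was highest in that basal 35 °C bird (20.6 CPM) and next in bird 5 of the L-citrulline 24 °C group (19.5 CPM). Single birds thus carried the highest values of these 3 genes, and bird 5 of the L-citrulline 24 °C group also had the highest summed choroid plexus markers, 2246 CPM over 8 kept of 9, where group medians were 188.8 to 249.2 CPM. Bird 6 of the basal 24 °C group, with 1866 CPM of these markers, had 3.97 CPM of KCNV1. The part of those markers was not tested.

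KCNH8, of the ELK type (0.430), ran from 0.966 to 4.99 CPM, and the leak channel KCNK18 (0.415) from 0.144 to 2.49 CPM. KCNJ4 had a BCV of 0.402, which was 0.196 with the marker levels in the fit, and SCN4B went from 0.350 to 0.197. CACNG3 stayed at 0.410 in that fit. The steadiest members were CACNG2 (BCV 0.085), KCNN3 (0.096), KCNC2 (0.099) and KCNC4 (0.0998), and CACNG2 ran from 38.6 CPM in the lowest bird to 51.7 in the highest. By family, the CACNB subunits had a median of 0.106 and the KCNQ channels one of 0.337. The KCNQ family includes KCNQ1, near the count minimum, while KCNQ3 had 0.1885. The part of the count level in the family medians was not tested.

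Many channel genes were lower in birds with more oligodendrocyte marker RNA. Oligodendrocytes wrap axons in myelin, and their marker level was taken as the mean z-score of log2 CPM over the 13 kept markers after subtraction of group means, in units of its SD. In a fit with the 4 group means, 40 of 93 members had a slope at an adjusted p under 0.05 in edgeR: 38 lower and 2 higher. Over all genes tested, 11.2% were called lower and 11.3% higher. The median slope was -0.11 log2 units per SD over members and 0.0001 over all genes.

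The calcium channels made up much of the group: all 6 CACNA1 pores and all 4 CACNB subunits were called lower, as were CACNA2D1 of 3 and CACNG4 of 5. CACNA1E had a slope of -0.24 ± 0.03 (adjusted p 2.03e-06 in edgeR), CACNA1B -0.17 ± 0.02 (1.55e-05), CACNB3 -0.12 ± 0.02 (2.31e-05) and CACNG4 -0.18 ± 0.03 (3.69e-05). In the bird with the lowest marker level, at -3.18 SD, CACNA1E had 271.3 CPM. In the birds with the highest levels, at 1.61 and 1.34 SD, it had 119.0 and 106.2 CPM. These birds were all of the L-citrulline 35 °C group. Bird 6 of the basal 35 °C group, at 1.32 SD, had 156.3 CPM, near the median of 159.3 CPM over all birds. CACNA1C and CACNA1D, CACNA1G and CACNA1H had slopes of -0.13 ± 0.04, -0.17 ± 0.04, -0.17 ± 0.03 and -0.15 ± 0.05.

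Sodium channels split. SCN2A had the smallest p of all members, with a slope of -0.15 ± 0.02 (adjusted p 8.47e-07 in edgeR) and 414.3 CPM in the bird lowest in markers against 254.6 and 252.9 CPM in those highest. SCN2B and SCN3B were called lower too, at -0.11 ± 0.02 and -0.16 ± 0.03. SCN4A, the skeletal muscle subunit, was called higher at 0.26 ± 0.10 (adjusted p 0.0485), from 1.52 to 6.28 CPM over birds, and lost its call in 14 of the 24 fits that leave out 1 bird. Skeletal muscle markers summed to 53.66 to 290.6 CPM over 3 kept of 9, with MYH1E, MYL1, TNNC2, TNNI2 and MYLPF below the filter, and their part was not tested. SCN1A had a slope of -0.04 and SCN8A one of -0.08, and neither passed the test.

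Of the potassium channels, 22 were called lower and KCNJ2 higher. KCNJ2, a strong inward rectifier, had a slope of 0.19 ± 0.06 (adjusted p 0.0175 in edgeR), and its lowest value, 4.22 CPM, came from the bird lowest in markers. KCNS2 had -0.29 ± 0.05, KCNA4 -0.22 ± 0.04, KCND1 -0.20 ± 0.03 and the G protein-gated KCNJ3 and KCNJ6 -0.24 ± 0.05 and -0.22 ± 0.04. KCNQ3 had -0.15 ± 0.05 and KCNJ11 -0.14 ± 0.04. KCNA2, KCNC1, KCND2, KCNT1, KCNJ8, KCNK2, KCNK3, KCNK9, HCN2 and CACNG2 did not pass the test. Of the 41 tested channel partners, 14 were called lower and 8 higher.

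Much of the count rests on 1 bird. Without bird 3 of the L-citrulline 35 °C group, 19 members were called, all lower, and 17 of these were among the 40, while all genes gave 4.66% lower and 6.45% higher. Then SCN2A had a slope of -0.11 (adjusted p 0.000282 in edgeR), CACNA1E -0.15 (0.00308), CACNA1B -0.13, CACNB3 -0.10 and CACNG4 -0.10, while KCNJ2 and SCN4A did not pass the test, at adjusted p 0.138 and 0.0941. Without that bird and bird 4 of the same group, the farthest at the other end, 16 members were called. With the neuron and hypothalamic region levels and the W class described below in the same fit, 37 members were called, 29 lower and 8 higher, of which 22 were among the 40. For this fit and the one without both birds, the share of all genes called is not given.

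**Figure D4:**
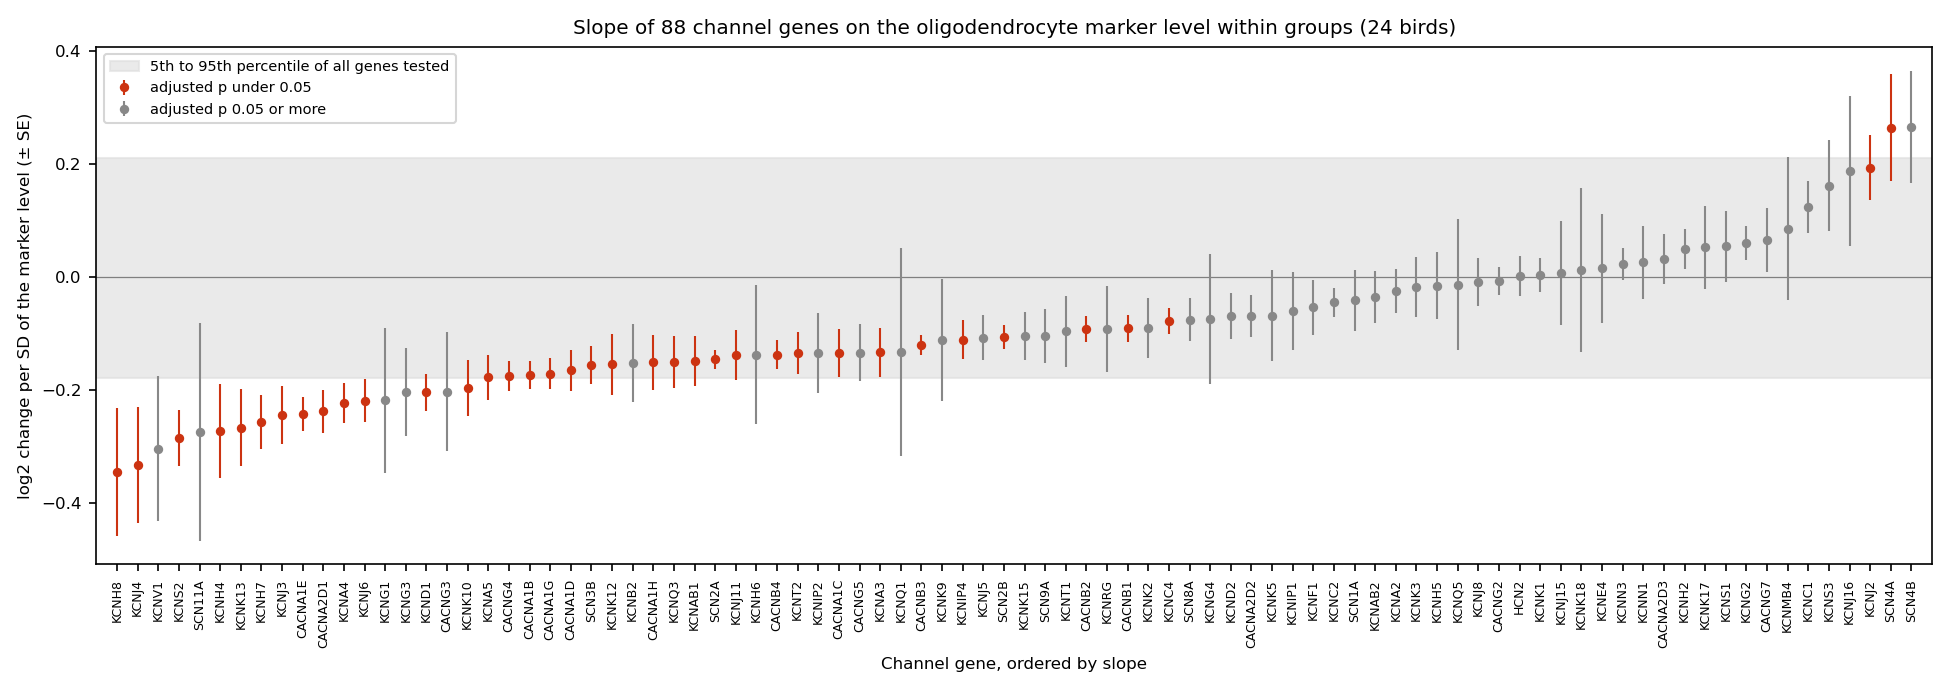
Slope of 88 channel genes on the oligodendrocyte marker level within groups (24 birds), in log2 units per SD with standard errors, ordered by slope, over the 5th to 95th percentile of all genes tested (grey). The 37 genes shown with an adjusted p under 0.05 are red, 35 below 0 and 2 above.

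**Figure D5:**
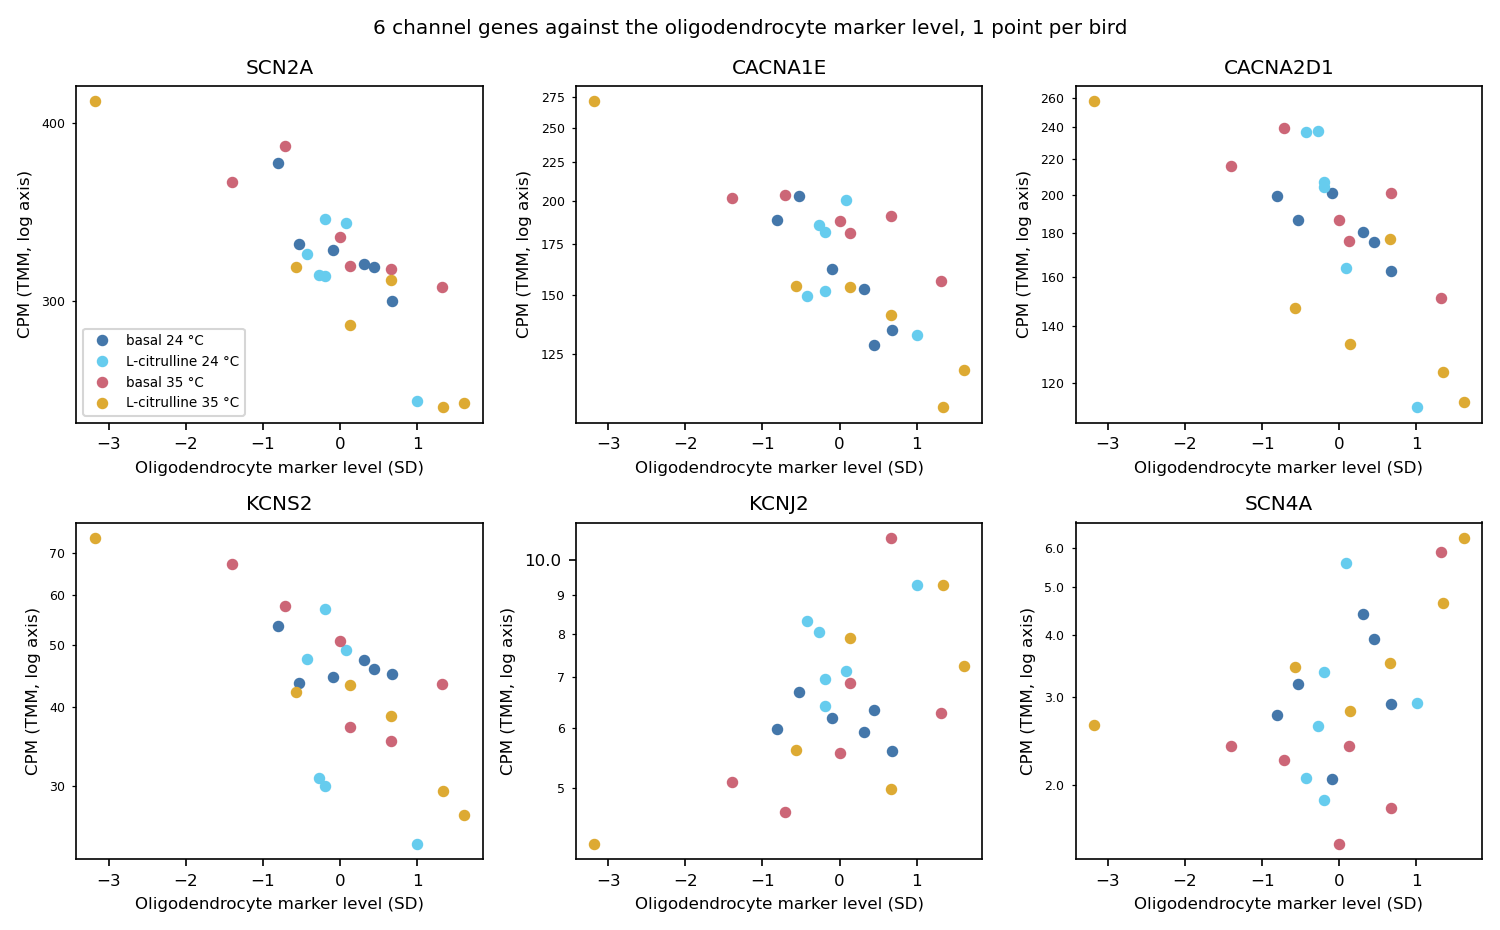
CPM (scaled by TMM, log axis) of 6 channel genes against the oligodendrocyte marker level in SD, 1 point per bird and colours by group. SCN2A runs from 414.3 CPM in the bird at -3.18 SD to 252.9 CPM in the lowest, and KCNJ2 has its lowest value, 4.22 CPM, in the former.

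Against the neuron marker level, 25 members were called higher and 1 lower, where all genes gave 8.43% higher and 7.02% lower. CACNA2D1 had a slope of 0.24 ± 0.04 log2 units per SD (adjusted p 0.000823 in edgeR), CACNB4 0.14 ± 0.03, SCN8A 0.14 ± 0.03, the A-type channel KCND1 0.18 ± 0.04 and KCNAB2 0.16 ± 0.03. SCN2A, SCN1A, KCNA2 and KCND2 were also called higher, at 0.11 ± 0.03, 0.17 ± 0.04, 0.13 ± 0.03 and 0.14 ± 0.03. SCN4A was the member called lower, at -0.36 ± 0.08. Without bird 3 of the L-citrulline 35 °C group, 12 members were called higher and 1 lower (all genes 4.82% and 2.33%), and the 5 named first and SCN4A remained called while SCN2A did not. KCNAB2 had a slope of 0.095 without bird 2 of the L-citrulline 24 °C group. Without the 2 birds farthest in neuron level, 4 members were called, and with the other levels and the W class in the fit, 10. Shares over all genes are not given for these fits.

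The neuron and oligodendrocyte levels ran against each other over birds, so both slopes read partly the same differences. Pearson's r was -0.67 (permutation p 0.00034, adjusted over 3 relations 0.001) and Spearman's rho -0.62 (permutation p 0.002, adjusted 0.006) over 24 birds. Without the 2 birds farthest from the median of the oligodendrocyte level r was -0.52. The oligodendrocyte level had no such relation to the hypothalamic region level (r 0.02, rho 0.07, permutation p 0.91 and 0.74).

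On the hypothalamic region marker level, 0 members were called in edgeR, 16 had an unadjusted p under 0.05, and DESeq2 called 4. Over all genes edgeR called 0.131% higher and 0.0655% lower. KCNJ4 came nearest, with a slope of -0.43 ± 0.09 (adjusted p 0.0592 in edgeR), then SCN1A at -0.16 ± 0.04 (0.12) and KCNAB2 at -0.14 ± 0.04 (0.142). All genes gave 9.61% at an unadjusted p under 0.05 in edgeR. No share over all genes is given for DESeq2 or for the fits below that leave out a bird. Leaving out 1 of 7 birds gave 1 or 2 calls: KCNJ4 without bird 3 of basal 24 °C, bird 4 or 6 of basal 35 °C, or bird 3 or 4 of L-citrulline 35 °C, KCNJ4 and SCN1A without bird 1 of L-citrulline 24 °C, and KCNAB2 and SCN1A without bird 5 of that group. SCN1A and KCNAB2 were highest of all birds in bird 2 of the L-citrulline 24 °C group, at 245.6 and 261.4 CPM, which had the lowest hypothalamic level at -2.99 SD and the highest neuron level at 2.27 SD. They were lowest of all birds in bird 3 of that group, at 107.0 and 119.3 CPM.

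Genes on chromosome W, which only hens carry, divided the libraries into 12 with high and 12 with low levels (means of 4.04 to 4.30 and -2.52 to -2.06 log2 CPM over 32 genes). These classes were read from the data and are not groups of the study. The high class held 2 of 6 birds in each basal group and 4 of 6 in each L-citrulline group. No member differed between the classes at an adjusted p under 0.05 in edgeR, 7 had an unadjusted p under 0.05 (7.53%, where all genes gave 10.6%), and DESeq2 called KCNH8. Over all genes edgeR called 0.597% higher and 3.1% lower in the high class, and no such share is given for DESeq2. All genes include those on chromosomes Z and W, among them the 32 that define the classes, which the choice of members leaves out. The shares of members and of all genes therefore cannot be compared directly here. KCNH8 had 1.11, 2.75 and 4.99 CPM in the lowest, median and highest bird of the high class and 0.966, 1.86 and 3.16 CPM in the low class. The classes overlapped, and the difference was 0.82 ± 0.24 log2 units with an adjusted p of 0.0667 in edgeR. KCNJ8, the pore of vascular ATP-sensitive channels, followed at -0.22 ± 0.08 (0.18). KCNH8 passed the test without bird 1 or 2 of basal 24 °C or bird 1 of L-citrulline 35 °C, and KCNJ8 without bird 5 of basal 35 °C. With the class in the fit, 0 members were called in each of the 8 treatment comparisons.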

How the data were processed

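RNA of 24 hypothalamus libraries was sequenced. Counts of each gene, and FPKM made from them, stand in the table deposited by the authors, per the file headers. Each FPKM value equals the count over gene length and column total. Build GRCg6a and the tools HTSeq, HISAT2, DESeq and TopHat are listed, without versions, in the submitters' processing notes. The authors' deposited comparison tables hold log2 fold changes and p-values, which are only quoted.

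Counts were scaled by TMM, filtered by filterByExpr and fitted in edgeR 4.0.16 (R 4.3.3) as 4 group means over 24 libraries, with quasi-likelihood F tests, Benjamini-Hochberg adjustment over 13742 genes and a threshold of 0.05. Standard errors follow ±. Marker levels, used as slopes, took log2 CPM with a prior count of 2. DESeq2 1.42.0 and limma 3.58.1 served as alternatives, besides other scaling, no filter, covariates and leaving out each library. Scripts were tested on simulated data. No library pair within a group was a copy (chi-square per degree of freedom 7.39 to 91.4 over 60 pairs).

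The members and lists were chosen with earlier results of these data known. Genes named are, per family, the 2 highest and the lowest in FPKM, the 5 of smallest p per single-factor comparison, interaction and direction of a slope or class difference among called genes, the 8 most and 4 least variable, and 32 fixed names, of which 26 are members. A few members are counted but not reported here by name or in the plots of single genes. A name outside that rule was chosen after its values were seen. Results rest on 12635239 to 15001037 counts per library. The authors' enrichment, heat map, correlation and principal component tables, and 1 comparison of groups that differ in both factors, were not used here.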

Additional observations from a re-analysis of the deposited data

Results flagged for a closer look

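In 14 channel genes named in the treatment comparisons, and in the share of counts from channel genes, each group of 6 birds was checked for a single bird far from the rest, by the gap to the nearest bird over the range of the group (Dixon's test at 95%). Of 60 groups checked, 3 held such a bird, and chance flags about 1 in 20 groups. KCNG4 had 7.52 CPM in bird 5 of the L-citrulline 24 °C group, where the other 5 birds had 1.78 to 3.79 CPM. KCNH5 had 6.07 CPM in bird 6 of the L-citrulline 24 °C group, where the others had 10.3 to 12.5 CPM. It had 15.2 CPM in bird 5 of the basal 35 °C group, where the others had 7.85 to 10.2 CPM.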

How the results depend on the processing

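Treatment calls stayed at 0 members in all 8 comparisons with DESeq2, limma voom, RLE scaling, no filter, the W class, only the 2 groups compared where run, uncentred marker levels (chosen after seeing the data) and each library left out (0 to 0). The exceptions came with 3 centred marker levels: 2 members for heat on the L-citrulline diet, 3 for L-citrulline at 24 °C (KCNJ4 at -1.02 among them) and 2 for the interaction. Oligodendrocyte slopes gave 38 to 45 calls with other tools or scaling and 37 with all levels and the W class, but 16 without the 2 farthest birds, and 19 to 43 with a library left out. Neuron slopes gave 26 to 27 with other tools, 4 without the 2 farthest birds, 10 with all levels and the W class, and 13 to 31 with a library left out. Hypothalamic slopes gave 4 in DESeq2, 5 with all levels and the W class, and 0 to 2 with a library left out. The W class gave 1 in DESeq2 and 0 to 1. For the counts of calls in this paragraph, the share of all genes called is not given beside them. Whether the drops to 16 and to 4 concern the channel genes or follow all genes was not examined here. The counts of 19 and 13 came without the bird that stood apart in oligodendrocyte markers. There the shares of all genes called higher and lower fell as well, as given above. The median spread of 0.184 was 0.182 with the W class, 0.144 with marker levels and 0.176 to 0.189 with a library left out, and the median level with a library left out was 8.44 to 8.68 FPKM. Replicate numbers did not pair the birds: of 36 pairs with the same number, 14 had r over 0.1, and 3 of 24 libraries correlated best with their own number. With the replicate block, calls were 0 in the treatment comparisons, 40 and 24 for the oligodendrocyte and neuron slopes and 0 for the others. The members of smallest p per single-factor comparison, interaction and called slope were followed by value, and none changed sign in any setting that tested it. Other values named in the text were not followed in this way. The cause of each change was not tested. Depth limits the members near 240 counts, such as SCN11A and KCNQ1.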
